A study of Mus musculus with 2 samples.

Results

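The 10 genes described here are lineage-specifying genes of the early embryo, Gata3, Gata4, Gata6, Meis1, Cdx2, Eomes, Sox17, Bmp4, Lefty1 and Lefty2, out of 21938 protein-coding genes annotated in GENCODE mouse release 21. They were taken by name and asked for peaks of SRCAP, the ATPase of the remodeling complex that exchanges H2A for the variant H2A.Z, in SYAT cells. SYAT is a mouse embryonic stem cell line derived from CGR8, in which every SRCAP molecule carries a fluorescent YPet tag and a degron that auxin activates through the F-box protein OsTir1, also expressed in the line. Both samples came from this line in the control condition, grown in serum and LIF with auxinole, an auxin antagonist that prevents basal SRCAP degradation, and are labelled NT with different replicate numbers. In each, an anti-GFP antibody against the YPet tag was mapped by CUT&Tag, in which an antibody brings the Tn5 transposase to the tagged protein, in 200000 cells with 1 h of transposition and Drosophila nuclei added as a spike-in. The study's reporting summary describes its replicates as grown and treated separately, without naming this assay, and auxin-treated cells and a library without the tag were not analysed here.

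In the embryo, GATA factors, CDX2, EOMES and SOX17 open or maintain the gene programmes of trophectoderm, primitive endoderm, mesoderm and definitive endoderm. MEIS1 is a homeodomain cofactor of HOX proteins. BMP4 and the Nodal antagonists LEFTY1 and LEFTY2 are secreted proteins of the TGF-beta superfamily that pattern the germ layers. In pluripotent cells many promoters of such regulators carry both H3K4me3 and H3K27me3, a state called bivalent, and H2A.Z is known to be found there. Peak lists hold no expression, so whether the genes were silent could not be checked. As background, Lefty1, Lefty2 and Bmp4 are known to be transcribed in mouse embryonic stem cell cultures.

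Replicate 1 held 6158 peaks and replicate 2 held 12958, with median scores of 32 and 36, where the score is 10 times the −log10 of the q-value given by the peak caller. The lists give no read numbers, so sequencing depth is unknown, and an absent peak does not show absence of SRCAP. Promoters reached from 1000 bp before to 500 bp past each annotated transcription start site (TSS) of a gene. Peaks outside these windows but in the gene body or within 20 kb of it were counted as further peaks.

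SRCAP-YPet peaks were found at 7 of the 10 lineage genes in at least 1 replicate, against 60.4% of all protein-coding genes. In both replicates 1 of 10 had a peak, Meis1, against 27.0% of all. A promoter peak was present at 2 of 10 genes in replicate 1, Gata3 and Sox17, and at 1 of 10 in replicate 2, Eomes. Of all protein-coding genes, replicate 1 marked 15.7% at a promoter and replicate 2 marked 30.4%. No lineage gene had one in both replicates, against 12.0% of protein-coding genes. With 10 genes, 1 gene more or less moves such a share by 10 percentage points, and no test was made of these counts.

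Further peaks were found at 1 gene in replicate 1, Meis1, and at 4 in replicate 2, Meis1, Cdx2, Lefty1 and Lefty2. Under the same rule replicate 1 gave 20.5% of protein-coding genes a further peak, replicate 2 gave 38.2% one, and 14.9% had one in each list. Meis1 was the only lineage gene with a further peak in both replicates. Gata4, Gata6 and Bmp4 had no peak of either kind in either replicate, a state shared by 39.6% of protein-coding genes. Of the 10 genes, 6 had a peak of either kind in exactly 1 replicate, against 33.4% of protein-coding genes, a difference that was not tested.

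**Figure D1:**
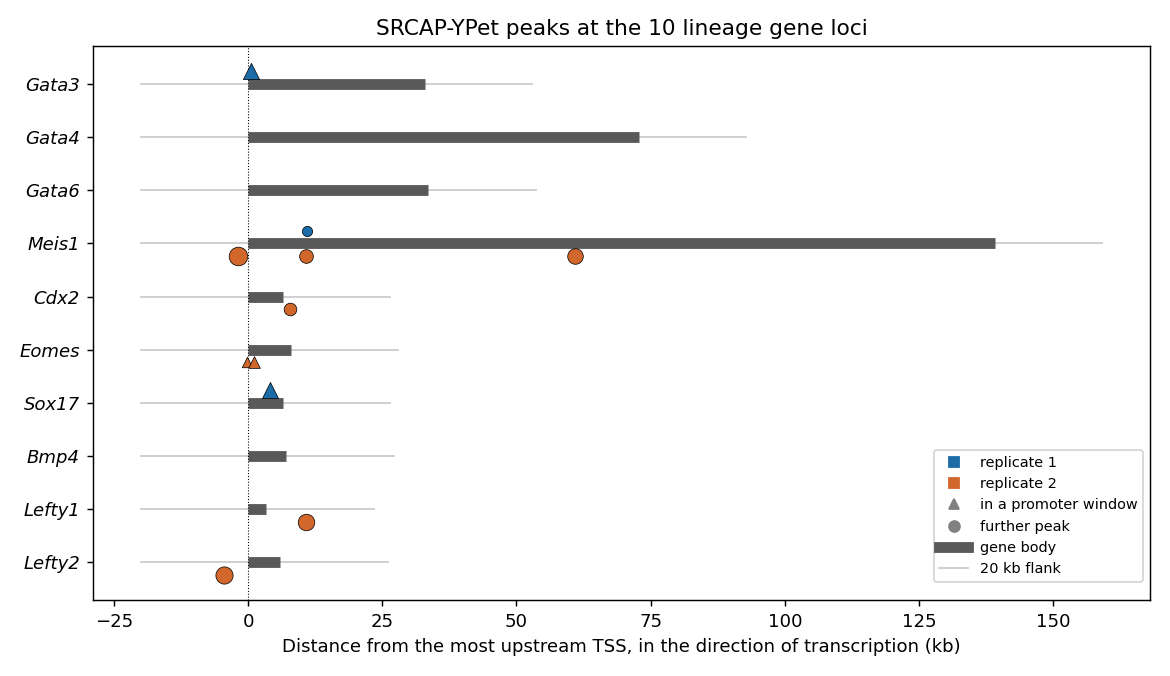
Positions of SRCAP-YPet peaks at the 10 loci, as distance in kb from the most upstream TSS of each gene in the direction of transcription. Dark bars are gene bodies, thin lines the 20 kb flanks, triangles peaks in a promoter window and circles further peaks, with larger symbols for higher scores; replicate 1 lies above and replicate 2 below each gene, and the only place where both replicates have a symbol at the same position is in Meis1.

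The endoderm and trophoblast regulator genes Gata3, Gata4 and Gata6 encode zinc finger factors that bind the same core motif. At Gata3, on the minus strand at chr2:9857078-9890034 (mm10, as all positions here), replicate 1 had a peak at chr2:9889370-9889685 with a score of 48, higher than 77.9% of that list. Its midpoint lay 506.5 bp downstream of the most upstream Gata3 TSS, in an intron of the gene, and its border was 317 bp from the nearest Gata3 TSS. The peak covered a TSS of 9230102O04Rik, a protein-coding gene that lies within Gata3 on the same strand, so the peak was closer to that start than to any start of Gata3. The RefSeq start of Gata3 lay 10.77 kb away. In replicate 2 the nearest peak to Gata3 was 158.166 kb off, in the promoter windows of Taf3 and C630004M23Rik.

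The sequence around the midpoint of the Gata3 peak is shown because it is the strongest promoter peak among the lineage genes. It is 300 bp of GRCm38, the assembly of mm10, at chr2:9889378-9889677, read on the minus strand. It holds 10 CpG dinucleotides at 57.7% GC. Capitals here and in the sequences after it mark exact matches, on either strand, to 5 motifs, which are bound by NF-Y, YY1, OCT4, SOX2 and GATA factors and are spelled out with the promoters of the lineage genes.
Gata3 peak: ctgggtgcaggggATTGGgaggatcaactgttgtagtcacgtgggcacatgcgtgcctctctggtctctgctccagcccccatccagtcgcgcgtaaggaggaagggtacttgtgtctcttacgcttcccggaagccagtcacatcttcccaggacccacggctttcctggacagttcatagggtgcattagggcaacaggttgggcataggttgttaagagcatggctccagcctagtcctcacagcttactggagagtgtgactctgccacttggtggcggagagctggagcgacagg
The capitals of this sequence are 1 match to CCAAT, the NF-Y motif, on the opposite strand. Windows of 300 bp around all peak midpoints held CCAAT in 36.8% of cases in replicate 1 and 33.3% in replicate 2, so such a match is common.

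Gata4, at chr14:63198922-63271692 on the minus strand, spans 72771 bp and has 5 annotated TSSs, none with a peak in its window. The nearest peaks lay 35.4 kb away in replicate 1 (score 45) and 35.082 kb away in replicate 2 (score 88). Both lay in the promoter window of Fdft1, which encodes the squalene synthase of sterol synthesis, and overlapped each other by 287 bp. They were 20715 and 20397 bp from the end of Gata4, just beyond the 20 kb flank. At Gata6 no peak lay in the windows of its 6 TSSs, and the nearest was 53.278 kb away in replicate 1 (score 23) and 202.463 kb in replicate 2 (score 35). Those are 2 different intergenic places on opposite sides of the gene, and neither overlapped a peak of the other replicate.

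Sox17, an HMG-box regulator of endoderm, had 8 annotated TSSs on the minus strand, at chr1:4490931-4497354. Replicate 1 had a peak at chr1:4493115-4493467 with a score of 46, above 74.4% of the list. Its midpoint lay inside the gene, 4063 bp downstream of the most upstream TSS, and overlapped coding and untranslated exon sequence. Its border was 137 bp from an internal TSS, and it fell in the windows of 2 of the 8 TSSs. In replicate 2 the nearest peak was 98.214 kb away, in an intron of Rp1 (score 24). The GC content around the Sox17 midpoint was 68.7%, against a median of 60.3% for all peaks of replicate 1. Around the Gata3 and Meis1 midpoints of replicate 1 it was 57.7% and 57%, below that median.

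Eomes, a T-box factor of mesendoderm and trophoblast on the plus strand at chr9:118478212-118486132, was the only lineage gene with a promoter peak in replicate 2. It had 2 peaks there. The first, at chr9:118477846-118478167, ended 45 bp before the most upstream TSS and overlapped the RefSeq promoter interval. Its score was 14, and only 2.04% of the replicate 2 peaks scored lower. The second, at chr9:118479190-118479564, lay in coding exon sequence 329 bp from the nearest TSS with a score of 20, above 12.4% of the list. It was 1001 bp from the RefSeq start and did not overlap the RefSeq promoter interval. Each of the 3 Eomes TSS windows held a peak. In replicate 1 the nearest peak was 244.183 kb away, in an intron of Itga9, with the lowest score of that list, 13.

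The 2 Eomes sequences are shown because they differ in base content at 1 gene, the first upstream of it and the second in a coding exon. Each is 300 bp around the midpoint of a peak on the plus strand, at chr9:118477857-118478156 and chr9:118479228-118479527.
Eomes upstream peak: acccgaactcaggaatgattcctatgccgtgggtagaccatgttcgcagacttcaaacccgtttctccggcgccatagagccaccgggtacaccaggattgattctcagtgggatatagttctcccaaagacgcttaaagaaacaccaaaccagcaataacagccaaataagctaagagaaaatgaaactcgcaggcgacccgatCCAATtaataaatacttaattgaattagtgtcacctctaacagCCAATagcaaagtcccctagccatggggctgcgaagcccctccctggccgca
Eomes downstream peak: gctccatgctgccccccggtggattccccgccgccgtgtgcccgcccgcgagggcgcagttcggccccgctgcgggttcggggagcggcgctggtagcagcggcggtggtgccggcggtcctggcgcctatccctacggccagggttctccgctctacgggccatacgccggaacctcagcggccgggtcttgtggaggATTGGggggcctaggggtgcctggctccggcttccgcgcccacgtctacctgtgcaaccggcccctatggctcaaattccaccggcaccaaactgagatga
The upstream sequence has 48.7% GC and 13 CpG dinucleotides with 2 matches to CCAAT. The downstream sequence has 71.0% GC and 32 CpG dinucleotides with 1 match on the opposite strand. The median over all replicate 2 peaks was 58.7% GC, so the pair lies on both sides of it.

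Meis1, on the minus strand at chr11:18879817-19018985, held the only site found in both replicates. In replicate 1 the peak at chr11:19007770-19008150 had a score of 13, the minimum of the list, which 9.89% of its peaks share. In replicate 2 the peak at chr11:19007967-19008288 had a score of 31, above 38.4% of the list. They overlapped by 184 bp in an intron, about 11 kb into the gene. The nearest Meis1 TSS was 3852 bp from the peak in replicate 1 and 3714 bp in replicate 2. Both peaks lay in the promoter window of Gm16140, an antisense gene that starts within Meis1, 978 bp and 840 bp upstream of its start. CUT&Tag does not tell strands apart, so the peaks cannot be assigned to either transcript.

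Replicate 2 had another pair of peaks at Meis1. One at chr11:19020633-19020968 had a score of 66, the highest at any lineage gene locus, and lay 1648 bp upstream of the most upstream TSS, outside the promoter window. The other, at chr11:18957768-18958193 with a score of 43, lay in an intron 61004.5 bp downstream of that TSS. Neither overlapped a replicate 1 peak, the nearest of which were 12.483 and 49.577 kb away. None of the 7 TSS windows of Meis1 held a peak in either replicate. The gene is long, and its locus of 179.169 kb would hold 0.404 peaks in replicate 1 and 0.851 in replicate 2 at the mean density of each list. At the density over the loci of all protein-coding genes it would hold 0.620 and 1.30, against 1 and 3 found.

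The stretch that both lists cover is shown because no other lineage gene site recurred, and the upstream peak because of its score. The shared stretch is 184 bp at chr11:19007967-19008150 and the upstream window 300 bp at chr11:19020651-19020950, both read on the minus strand.
Meis1 shared intron stretch: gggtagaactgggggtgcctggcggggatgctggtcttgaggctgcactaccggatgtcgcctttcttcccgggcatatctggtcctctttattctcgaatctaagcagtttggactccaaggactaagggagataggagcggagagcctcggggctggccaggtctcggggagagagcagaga
Meis1 upstream peak: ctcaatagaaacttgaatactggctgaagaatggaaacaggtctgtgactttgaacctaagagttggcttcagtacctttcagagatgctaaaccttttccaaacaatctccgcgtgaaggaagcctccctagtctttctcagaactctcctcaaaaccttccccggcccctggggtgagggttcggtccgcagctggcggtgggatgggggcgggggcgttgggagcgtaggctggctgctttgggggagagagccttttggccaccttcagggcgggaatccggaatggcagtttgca
The shared stretch has 58.7% GC and 8 CpG dinucleotides, and the upstream window has 55.0% GC and 11. Neither holds an exact match to any of the 5 motifs, which says only that these letters are not in these windows. The 300 bp window around the replicate 1 midpoint, which reaches past the shared stretch, holds 1 match to ATGGCGG.

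Cdx2, the caudal homeobox factor of trophectoderm, had 1 annotated TSS on the minus strand, in a gene at chr5:147300805-147307270, and no promoter peak. Replicate 2 had a peak at chr5:147299277-147299538 with a score of 25, above 27.8% of the list. It lay between genes, 1267 bp past the 3′ end of Cdx2 and 7732 bp from its TSS. In replicate 1 the nearest peak was 230.325 kb away in the promoter windows of Lnx2 and Polr1d (score 88). The sequence of this peak is shown because it was the only one at the locus, at chr5:147299258-147299557 on the minus strand.
Cdx2 downstream peak: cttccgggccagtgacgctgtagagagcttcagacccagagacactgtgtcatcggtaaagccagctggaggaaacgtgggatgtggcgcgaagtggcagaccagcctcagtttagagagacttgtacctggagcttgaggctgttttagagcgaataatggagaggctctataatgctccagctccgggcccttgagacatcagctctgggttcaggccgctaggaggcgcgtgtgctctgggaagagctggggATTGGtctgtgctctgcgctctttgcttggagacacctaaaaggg
This window has 56.3% GC, 12 CpG dinucleotides and 1 match to CCAAT on the opposite strand.

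The secreted signals had no promoter peak. Bmp4, on the minus strand at chr14:46383520-46390669, was the farthest from a peak of all 10 genes. Its nearest peak was 369.854 kb away in replicate 1 and 369.79 kb in replicate 2, at the TSS of Cdkn3, a cell cycle phosphatase gene. These peaks had scores of 35 and 26 and overlapped by 295 bp. Of all protein-coding genes, 88.6% were nearer to a peak in replicate 1 and 95.6% in replicate 2.

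Lefty2 and Lefty1 lie side by side on the plus strand at chr1:180893108-180899103 and chr1:180935022-180938400, 35.919 kb apart. Replicate 2 had a peak at chr1:180888179-180888999 with a score of 55, 4109 bp upstream of Lefty2. It was 821 bp wide and wider than 96.6% of the peaks of that list. No annotated TSS was nearer to it than that of Lefty2. At Lefty1 the replicate 2 peak at chr1:180945588-180945881 (score 50) lay 7188 bp past the end of the gene. It was 25 bp from a TSS of Tmem63a, which encodes a mechanosensitive channel, and in that gene's promoter window. In replicate 1 the nearest peak to both genes was the same one, in the promoter window of Sde2 (score 34), 42.134 kb from Lefty2 and 84.048 kb from Lefty1.

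The gap between the nearest TSS and the nearest peak does not depend on a window. Its median over the 10 genes was 47.7 kb in replicate 1 and 21.9 kb in replicate 2. Over all protein-coding genes the medians were 67.4 kb and 20.5 kb. The lineage genes therefore had a smaller median than all genes in replicate 1 and a slightly larger one in replicate 2. The order in replicate 1 turned with scores of at least 50, where the medians were 624.0 kb for the lineage genes and 519.6 kb for all. In replicate 2 it turned when peaks largely in repeat-masked sequence were left out. The medians were then 21.9 kb for the lineage genes and 23.1 kb for all. The order of genes changed between replicates. Eomes was among the farthest in replicate 1 and the nearest in replicate 2, while Sox17 and Gata3 were the nearest in replicate 1 and among the farther ones in replicate 2. Gata4 and Bmp4 kept almost the same gap, since the same peak was nearest in both lists.

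**Figure D2:**
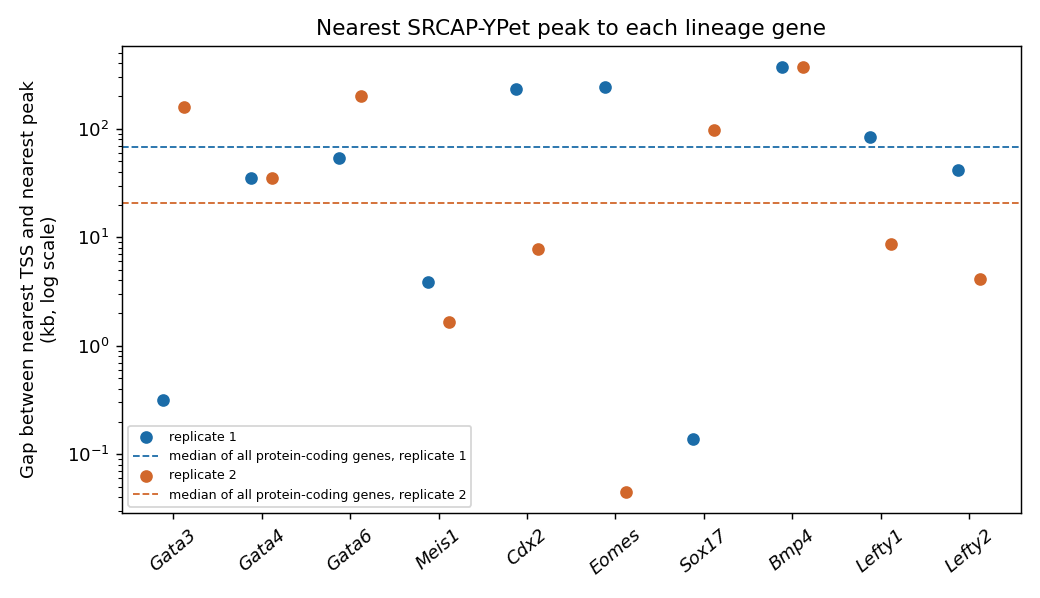
Gap in kb, on a log scale, between the nearest TSS of each lineage gene and the nearest SRCAP-YPet peak in replicate 1 (blue) and replicate 2 (orange). Dashed lines are the medians over all protein-coding genes, 67.4 and 20.5 kb; Gata4 and Bmp4 have nearly equal gaps in both replicates, and at Eomes the gaps are 244.183 and 0.045 kb.

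Together the loci with their flanks cover 711.723 kb in 9 separate stretches, since the flanks of Lefty1 and Lefty2 overlap. They held 3 peaks in replicate 1 and 8 in replicate 2, or 0.422 and 1.12 peaks per 100 kb. The mean over the genome was 0.226 and 0.475, and over the loci of all protein-coding genes with the same flanks it was 0.346 and 0.725. At the latter density 2.46 and 5.16 peaks would lie there, against the 3 and 8 found. Of the 44 TSS windows of the 10 genes, 4 held a peak in replicate 1 and 3 in replicate 2, which is 9.09% and 6.82%. For all protein-coding genes the shares of windows were 11.8% and 23.5%.

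Of the 3 peaks at lineage genes in replicate 1, 1 was overlapped by a replicate 2 peak, against 56.0% of the whole list. Of the 8 in replicate 2, 1 was overlapped, against 26.6% of the whole list. Among peaks in the same range of scores, 13 to 48 in replicate 1 and 14 to 66 in replicate 2, the shares were 48.0% and 19.7%. These shares are a description of 3 and 8 peaks. Scores at the loci had a median of 46 in replicate 1 and 37 in replicate 2, and 1 of 3 and 4 of 8 peaks lay below the median of their list. The weaker ones in replicate 2 were both Eomes peaks, the Cdx2 peak and the Meis1 peak of the shared site.

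**Figure D3:**
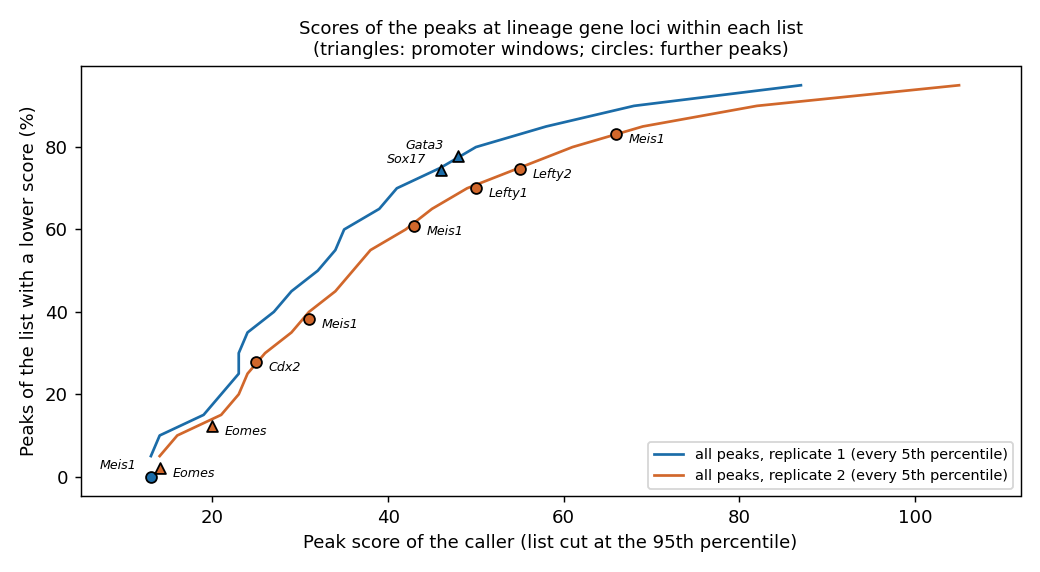
Score of each peak at a lineage gene locus against the percentage of peaks in its own list with a lower score, with lines for all peaks of replicate 1 (blue) and replicate 2 (orange) up to the 95th percentile. Triangles are promoter peaks and circles further peaks; those of Gata3 and Sox17 (48 and 46) lie in the upper part of replicate 1, the 2 Eomes peaks (14 and 20) near the bottom of replicate 2, and the Meis1 peak of replicate 1 at the lowest score, 13.

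Base content was a feature that the choice of genes did not use. In the promoter window of the most upstream TSS the lineage genes had a median GC content of 53.0%, against 51.7% for all protein-coding genes. The median ratio of observed to expected CpG was 0.490 against 0.482. A ratio of at least 0.6, counted here as CpG-rich, was reached by 36.8% of all protein-coding genes. Among the lineage genes Meis1 (0.788), Cdx2 (0.647) and Eomes (0.626) reached it, and Gata4 had the lowest ratio (0.173). Of these 3 genes, 0 had a promoter peak in replicate 1 and 1 in replicate 2. Here and for all protein-coding genes a peak was counted at any TSS, while the ratio was that of the most upstream one. The Sox17 peak, for example, lay 4063 bp downstream of the TSS that gave this gene its ratio of 0.558. Of 8083 protein-coding genes with CpG-rich promoters, replicate 1 marked 26.3%, replicate 2 marked 50.3% and both marked 21.1%.

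These genes have several starts, and the picture depended on which was taken. With the TSS of the highest ratio in each gene, an alternative chosen after seeing the data, 8 of 10 were CpG-rich against 44.4% of protein-coding genes. The ratio was then 0.850 for Gata6, 0.737 for Bmp4 and 0.642 for Gata4, while Lefty1 and Lefty2 stayed at 0.401 and 0.455. Of the 8 genes, 2 had a promoter peak in replicate 1 and 1 in replicate 2, beside 25.9% and 49.5% of all genes chosen in the same way. CCAAT occurred within 250 bp before to 50 bp after the most upstream TSS of 4 lineage genes, Meis1, Lefty1, Cdx2 and Eomes, and in 39.0% of all protein-coding promoters. The GATA motif AGATAA was found at Gata4 and Lefty2 (10.2% of all) and the OCT4 octamer, searched as ATGCAAA, at Cdx2 (4.27% of all). The YY1 motif ATGGCGG was in none of these windows of the lineage genes and in 4.79% of all. The SOX2 motif, searched as CATTGTT, was also in none of them and in 3.42% of all.

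**Figure D4:**
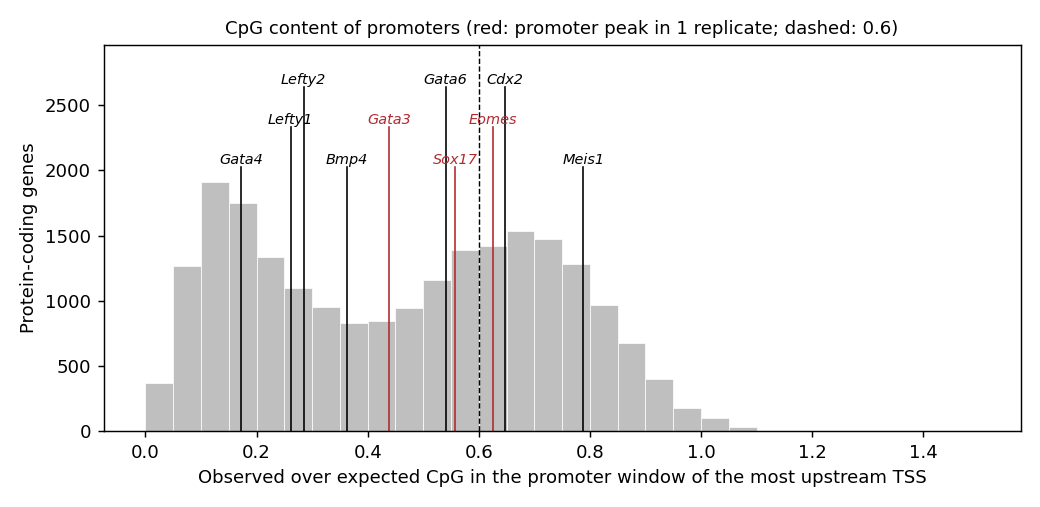
Histogram of the observed over expected CpG ratio in the promoter window of the most upstream TSS for all protein-coding genes (grey, number of genes), with a line for each lineage gene. Red marks the 3 genes with a promoter peak at any of their TSSs in 1 replicate, Gata3, Sox17 and Eomes. The dashed line is a ratio of 0.6, and the lineage genes spread from 0.173 to 0.788.

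To place these genes in their pathways, 4 further gene lists were counted in the same way. Of 18 genes of the Nodal and BMP pathways, replicate 1 marked 3 at the promoter, replicate 2 marked 6 and both marked 2. These are 16.7%, 33.3% and 11.1% of the list, close to the 15.7%, 30.4% and 12.0% of all protein-coding genes. Those in both were Bmpr2, the type II BMP receptor, with scores of 51 and 45, and Smad4, the SMAD shared by both branches, with scores of 28 and 38. Other receptors and transducers had a peak in 1 replicate, Acvr2b in replicate 1 and Acvr1b, Smad2, Smad5 and the target gene Id2 in replicate 2. The ligand gene Nodal, its coreceptor gene Tdgf1 and the antagonist genes Nog and Chrd had none, as did Bmp4 and the Lefty genes. The receptor genes Acvr2a and Bmpr1a, the transducer genes Smad1, Smad3 and Foxh1, and the target genes Id1 and Id3 had none either.

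Of 16 family relatives and cofactors, replicate 1 marked 2, replicate 2 marked 3 and both marked 2. Those in both were Zfpm1, which encodes the GATA cofactor FOG1 (scores 51 and 105), and Pbx3, which encodes a partner of MEIS proteins (scores 63 and 68). Pknox1, a TALE homeobox gene, had one in replicate 2 (score 82). The other 13 had none, among them Gata1, Gata2, Gata5, Meis2, Meis3, Cdx1, Cdx4 and Sox7. Of 14 other lineage regulators, 0 had a promoter peak in replicate 1 and 3 in replicate 2, Mixl1, Pax6 and Tfap2a, with scores of 24, 32 and 21. Of 10 pluripotency factor genes, 1 had a promoter peak in replicate 1 and 5 in replicate 2, and only Zfp42 had one in both. The last 3 lists are to be read against the same 15.7%, 30.4% and 12.0%.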

How the data were processed

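SRCAP-YPet CUT&Tag was analysed in 2 SYAT samples of 1 group. The authors called peaks with MACS2 in each sample alone, on mm10, and deposited for each peak its position and a score. The deposited score is a whole number of at least 13, read as 10 times the −log10 of the q-value, for which 0.05 gives 13. Per the labels, STAR and Picard were also used. The methods of the study give unique alignment, duplicate removal and scaling by Drosophila reads for ChIP-seq and CUT&Tag jointly, and the reporting summary gives 1 MACS2 command with an input control, without saying whether it held for CUT&Tag, which affects which peaks pass.

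TSSs and gene bodies came from GENCODE mouse release 21, and sequence from GRCm38 (RefSeq), whose chromosome lengths hold all peaks. The study used another TSS list. Overlap was at least 1 bp. RefSeq promoters were held for 5 of the 10 genes. Results are counts and medians beside the same over all protein-coding genes, with no tests. Named were the 10 genes, their nearest peaks, genes of the 4 lists with a promoter peak in both replicates, and neighbours with a promoter peak. Genes in 1 replicate were named after their values were seen. Members and lists were chosen with earlier results of these data known. The code was tested on simulated data. Python 3.11.15, numpy 2.4.6, pysam 0.24.0, samtools 1.23.1 and matplotlib 3.10.9 were used.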

Additional observations from a re-analysis of the deposited data

How the results depend on the processing

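Of 100 alternatives to 21 values, 66 stayed within 1.5-fold of the value given and 34 moved further. At these small counts 1 gene or peak is often enough to do so. Some of the 66 could not have moved. Replicate 1 already held 6158 peaks, so equal list lengths left it unchanged. Values of 0 that stayed at 0 are also among the 66, so that number is no measure of stability. None of the 10 lineage genes had a promoter peak in both replicates under any alternative run. The value was already 0, and the other alternatives can only remove peaks or windows. Only windows of 2000 bp on each side of the TSS could have raised it. Stricter scores, fewer peaks and narrower windows lower counts by their construction, and otherwise the cause was not tested.

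With a score of at least 50, which leaves 1275 and 3879 peaks, no lineage gene had a promoter peak in either replicate (0 and 0), beside 4.21% and 13.1% of protein-coding genes. Replicate 1 then had 0 genes with a further peak (4.13% of protein-coding genes) and 0 peaks at the loci, and replicate 2 kept 3 peaks, at 3 genes with a further peak (12.6% of protein-coding genes). The median gap rose to 624.0 and 194.2 kb, and that of all protein-coding genes to 519.6 and 121.7 kb, and the lists had 1 and 2 (Nodal and BMP), 0 (other lineage regulators, replicate 2), and 0 and 3 (pluripotency) genes. With the longer list reduced to 6158 peaks, replicate 2 had 0 lineage genes and 0 other lineage regulators with a promoter peak (19.2% of protein-coding genes), 4 peaks at the loci and a median gap of 115.0 kb (62.9 kb for all protein-coding genes). With a TSS inside the peak, 0 lineage genes were left in each replicate (9.73% and 20.6% of protein-coding genes), 0 and 0 genes of the Nodal and BMP list, 1 and 1 of the relatives, 1 of the other lineage regulators and 3 of the pluripotency factors in replicate 2. Windows of 2000 bp on each side added Meis1, giving 2 genes in replicate 2 (32.3% of protein-coding genes). Windows of 500 bp gave 1 relative in replicate 1 (15.4% of protein-coding genes) and 3 pluripotency factors in replicate 2 (29.7%). Flanks of 50 kb gave 4 genes with a further peak (37.9% of protein-coding genes) and 6 peaks in replicate 1. Without peaks in promoters of other genes, 0 genes had a further peak in replicate 1 (10.4% of protein-coding genes), since the Meis1 peak lies in that of Gm16140, and 3 had one in replicate 2 (20.6%).

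The mean over replicates was 1.5 genes with a promoter peak, 2.5 with a further peak, 5.5 peaks and a median gap of 34.8 kb. Leaving out 1 replicate leaves 1 list, with ranges of 1 to 2, 1 to 4, 3 to 8 and 21.9 to 47.7 kb. Promoter peaks in both replicates need both lists, so no such value exists there. No paired analysis was possible because the samples form 1 group. Depth is unknown and limits every statement on absent peaks.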
